A study of Mus musculus with 12 samples.

Results

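Ighj2 is 1 of the 4 joining (J) segments of the mouse immunoglobulin heavy chain locus, and its rearrangements were examined in splenic B cells of 12 mice. A rearrangement was assigned to Ighj2 when its translation had no stop, held a tyrosine or phenylalanine pair followed by cysteine (the end of framework 3) at residues 16 to 30, and then held the framework 4 motif WGQGTTL. The complementarity determining region 3 (CDR3) was read from the residue after that cysteine to the residue ahead of the motif's tryptophan. By this rule 175950 of 542938 unique translations with any of the 4 J motifs used Ighj2, against 48760 for Ighj1, 156569 for Ighj3 and 161659 for Ighj4. The cysteine stood at residue 23 in 175900 Ighj2 translations. At the edges of the window, 2 translations had it at residue 16, 1 had it at residue 29, and 1 translation just outside had it at residue 15. In all, 51 otherwise fitting translations lay outside the window, and a further 2293 held a stop.

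All 12 mice were female *MRL/lpr* animals aged 14 weeks, a strain prone to systemic lupus erythematosus that is homozygous for the *Fas* lpr mutation, so that every control carried it too. Of these, 6 received a control splice-modulating oligomer (Control SMO) and 6 an oligomer against the long prolactin receptor isoform (LFPRLR SMO), both by subcutaneous minipump. RNA from splenic B cells was amplified with primers for the J558 VH family and the Cμ constant region, so the data cover IgM transcripts of that VH family alone. Library depth ran from 130635 to 227202 reads in 11 libraries, and LFPRLR SMO replicate 6 had 627 reads with 161 Ighj2 translations, so its shares carry a wide counting error. Across the other 11 libraries the number of Ighj2 translations ran from 9630 to 22460.

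The heavy chain variable exon is assembled in developing B cells by joining a D segment to a J segment and then a VH segment to the DJ join. The J segment gives the last CDR3 residues and the whole of framework 4, while its coding end can be trimmed before joining and untemplated bases can be added. Ighj2 encodes the CDR3 residues YFDY, fewer than Ighj4 (YYAMDY) or Ighj1 (YWYFDV) and as many as Ighj3 (WFAY).

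The commonest unmutated forms of the segments in the deposited nucleotide sequences are shown first, because trimming and CDR3 length are measured against them. Capitals mark the bases that can lie in the CDR3, and lower case marks framework 4.
Ighj2: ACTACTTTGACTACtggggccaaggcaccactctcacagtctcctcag
Ighj3: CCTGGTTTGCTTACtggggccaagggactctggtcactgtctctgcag
Ighj4: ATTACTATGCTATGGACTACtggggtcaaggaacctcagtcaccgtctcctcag
The Ighj2 run was 48 bases long, the length that RefSeq (assembly GRCm38.p6) lists for Ighj2 on chromosome 12, and it gave 14 CDR3 bases and 34 framework bases. The Ighj2 framework run was carried unchanged by 95.3% of 215751 Ighj2 nucleotide sequences, and 20.1% of them also kept all 14 CDR3 bases. Ighj4 gave 20 CDR3 bases, and Ighj3 gave 14.

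To show how far the Ighj2 end was trimmed, the CDR3 with the largest summed share of reads is given for each number of kept YFDY residues, among CDR3s of at most 14 residues that did not end as another segment. Capitals mark the bases that match the Ighj2 end without a break, counted back from framework 4.
ASSGYVN, 0 kept residues: gcaagctcgggctacgtaaAC
ASRDGYYGY, 1 kept residue: gcaagccgtgatggttactacggCTAC
ARGLYGNYDY, 2 kept residues: gcaagaggcctttatggtaactacGACTAC
ATVWFDY, 3 kept residues: gcaaccgtatggTTTGACTAC
ARDWGLRHYFDY, 4 kept residues: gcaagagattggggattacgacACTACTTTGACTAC
The last of these, ARDWGLRHYFDY, kept all 14 Ighj2 bases, and ATVWFDY kept 9. Since a D segment or an added base can match the Ighj2 end by chance, these counts can exceed what Ighj2 gave. A changed base within the end would cut the count short. The summed share of ASSGYVN rested largely on 1 read in the small library of LFPRLR SMO replicate 6 (0.546% of its Ighj2 reads). In LFPRLR SMO replicate 7 it had 191 reads (0.431%).

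Ighj2 was used by about 1 in 3 rearrangements in both groups. By sequences, with each unique translation counted once, its share of J-assigned translations in the control SMO-treated mice had a lowest value of 28.9%, a median of 33.0% and a highest value of 35.1%. In the LFPRLR SMO-treated mice the lowest share was 30.4%, the median 32.5% and the highest 34.9%. The groups overlapped over almost their whole range, and the difference in medians (LFPRLR SMO minus control SMO) was -0.489 percentage points (p = 1 by two-sided exact Mann–Whitney *U*, n = 6 per group). The sign of this difference changed with the weighting, as given in the closing section. By reads, the shares ran from 27.8% to 35.2% in the control group (median 32.1%) and the LFPRLR SMO shares from 31.3% to 34.9% (median 32.9%). Of the 6 LFPRLR SMO libraries, 5 lay above the control median. That difference of 0.770 percentage points was within the spread between mice (p = 0.310 by exact Mann–Whitney *U*). For a single library the 95% Wilson interval of the share by sequences was narrow, from 28.6% to 29.3% in control SMO replicate 3, except in LFPRLR SMO replicate 6, where it ran from 28.8% to 37.1%. These intervals cover counting error only.

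Among the 4 segments, as assigned by the framework 4 motif alone, Ighj2 stood first by mean share. Within libraries it exceeded Ighj3 by 4.11 ± 2.45 percentage points by sequences (SD, n = 12, higher in 12 of 12 libraries) and Ighj1 by 23.2 ± 1.89 points (12 of 12). Both had an adjusted p of 0.000732 (two-sided exact sign-flip permutation test, 3 segments compared, smallest raw p possible 0.000488). It exceeded Ighj4 by 2.80 ± 4.10 points, in 8 of 12 libraries (exact sign-flip test, adjusted p = 0.0405). The order of Ighj2 and Ighj4 differed between 2 sets of libraries that could be told apart by a synonymous base near the Cμ end of the reads. In the 6 libraries where at least 10% of sequences carried the second form of that base (3 mice of each group), Ighj2 was above Ighj4 in 6 of 6, by 5.76 ± 2.14 points (exact sign-flip test, p = 0.0312, the smallest possible). In the other 6 it was above Ighj4 in 2 of 6, with a mean difference of -0.165 ± 3.35 points (exact sign-flip test, p = 0.938). By reads, Ighj2 exceeded Ighj4 in 11 of 12 libraries (5.08 ± 3.19 points, exact sign-flip test, adjusted p = 0.00220) and Ighj3 in 10 of 12 (3.23 ± 3.51 points, adjusted p = 0.0122). The segment whose share followed that of Ighj2 most closely was Ighj3 by sequences (SD over 12 libraries of the log2 ratio of the shares, 0.12) and Ighj4 by reads (0.16). Some CDR3s ended as another segment, as described below. In the median library 5.35% of Ighj2 sequences ended as Ighj4 and 4.002% as Ighj3. The reverse held for 2.70% of Ighj4 and 2.91% of Ighj3 sequences. The order of the segments without such sequences was not tested.

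**Figure D1:**
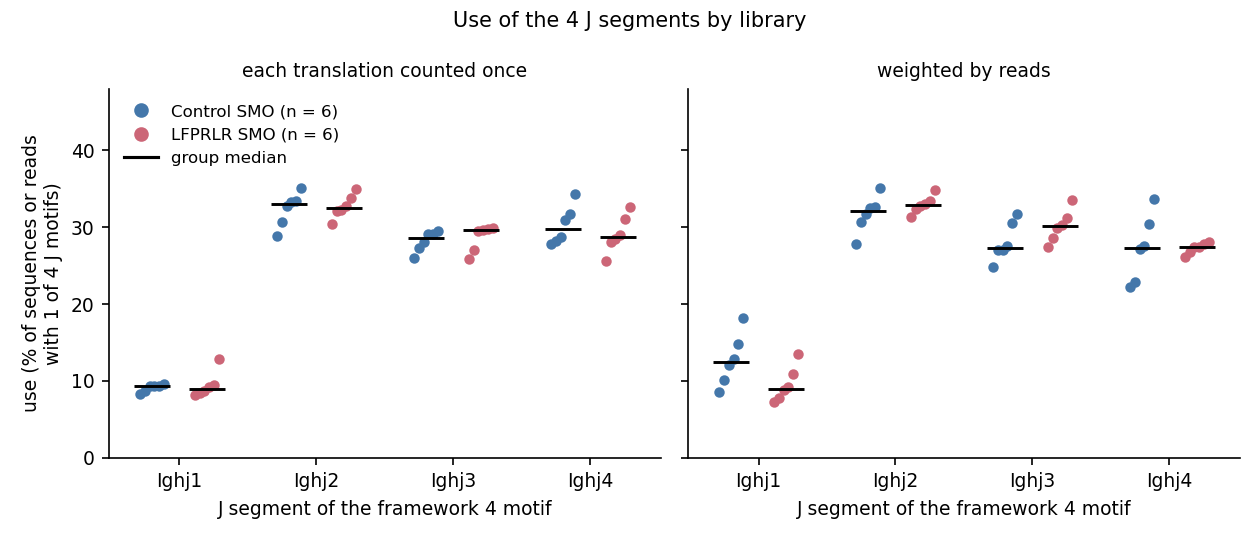
Use of Ighj1, Ighj2, Ighj3 and Ighj4 in each library, as a percentage of the translations (left) or reads (right) that held any of the 4 J motifs. Points are libraries, 6 control SMO and 6 LFPRLR SMO, and black bars are group medians. The Ighj2 points lie between 27.8% and 35.2%, and the 2 groups overlap in both panels.

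By sequences, the CDR3s of Ighj2 rearrangements were the shortest of the 4 segments. Their mean length over libraries was 10.3 ± 0.279 residues (SD, n = 12), against 10.7 ± 0.251 with Ighj3, 12.01 ± 0.231 with Ighj4 and 12.02 ± 0.546 with Ighj1. Within libraries the Ighj2 mean was below the pooled mean of the other segments by 1.20 ± 0.123 residues, in 12 of 12 libraries (two-sided exact sign-flip test, p = 0.000488, the smallest possible with 12). The difference was -0.453 residues from Ighj3, -1.75 from Ighj4 and -1.76 from Ighj1, each in 12 of 12 libraries. By reads the order did not hold in every library. Ighj1 CDR3s were then shorter than those of Ighj2 in control SMO replicate 5 (means of 9.01 and 10.3 residues) and control SMO replicate 7 (9.54 and 10), and the Ighj2 mean differed from that of Ighj3 by -0.00376 residues in control SMO replicate 5. The mean differences by reads were -1.48 residues from Ighj1 (Ighj2 shorter in 10 of 12 libraries), -0.609 from Ighj3 and -1.99 from Ighj4 (both 12 of 12). The residues ahead of the kept J end come from VH, D and added bases, and from J bases where a codon was only partly kept. They were nearly as many with Ighj2 (7.69 ± 0.239) as with the other segments (7.68 ± 0.209). That difference of 0.00889 ± 0.0891 residues did not pass the test (exact sign-flip test, p = 0.729, 6 of 12 libraries below 0). It turned to -0.154 ± 0.104 residues, below 0 in 11 of 12 libraries (p = 0.000977 by the same exact test), once CDR3s ending as another segment, described below, were left out of all 4 segments. The shortness of Ighj2 CDR3s remained there, at -1.35 ± 0.134 residues.

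Between the groups, the mean Ighj2 CDR3 length by sequences had a lowest value of 10.1 residues, a median of 10.3 and a highest value of 10.8 in the control mice. The corresponding values in the LFPRLR SMO mice were 9.91, 10.1 and 10.7. The 2 LFPRLR SMO libraries above the control median were replicates 7 and 8, and the difference in medians of -0.245 residues did not pass the test (p = 0.240 by exact Mann–Whitney *U*). By reads the difference in medians was -0.0850 residues (p = 0.132 by exact Mann–Whitney *U*). Within the library sets the differences by reads were -0.0860 and -0.377 residues, and permuting groups within sets gave p = 0.0400 (exact stratified permutation test). In every library the mean by reads was below the mean by sequences, by 0.216 ± 0.143 residues (12 of 12, exact sign-flip test, p = 0.000488), so the more abundant Ighj2 CDR3s were slightly shorter.

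The commonest Ighj2 CDR3 length was 10 residues in 7 libraries and 11 in 5. Lengths of 10 and 11 residues took 15.8% and 15.95% of Ighj2 sequences in the median library, lengths of 9 and 12 took 12.7% and 12.8%, and lengths of 8, 13, 7 and 14 took 9.57%, 8.17%, 6.88% and 5.35%. With the other segments a length of 9 took 7.43% and a length of 14 took 10.3%, so the Ighj2 curve lay to the left on both sides of its peak. Very short and very long Ighj2 CDR3s were rare. Of 175950 translations, 12 had 3 or fewer residues and 76 had 20 or more, of which 4 had at least 24 and the longest had 56.

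**Figure D2:**
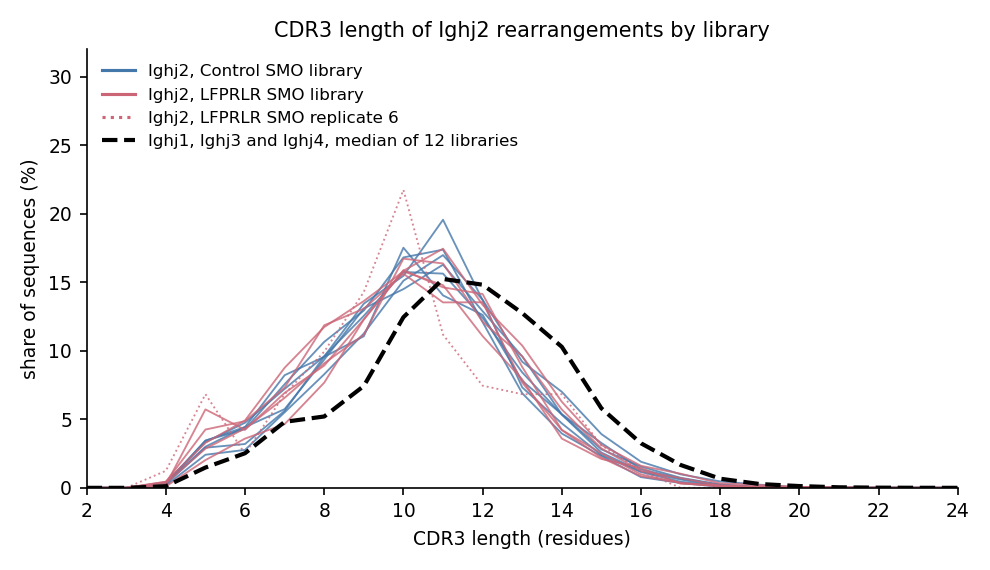
CDR3 length of Ighj2 rearrangements, with the length in residues on the horizontal axis and the share of Ighj2 translations in percent on the vertical axis, up to 24 residues. Thin lines are libraries (blue control SMO, red LFPRLR SMO, dotted LFPRLR SMO replicate 6 with 161 translations), and the dashed line is the median over 12 libraries for the other 3 segments pooled. The Ighj2 lines peak at 10 or 11 residues and lie left of the dashed line.

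Most Ighj2 rearrangements had lost part of YFDY. All 4 residues were kept by 30.1% of sequences in the median library (range 25.2% to 34.6%), 3 (FDY) by 19.5%, 2 (DY) by 29.5%, 1 (the last Y) by 17.4% and none by 3.13%. The shares thus had a dip at 3 residues between peaks at 2 and 4. Without the CDR3s that ended as another segment the order was the same, with 33.3% for 4 residues, 21.7% for 3, 26.9% for 2, 14.5% for 1 and 3.20% for none. CDR3s that kept all 4 residues were the longest of these classes, with a median over libraries of 11.5 residues against 8.65 for those that kept 1. The residues ahead of the kept J differed little between the classes, from a median of 7.15 where 3 were kept to 7.65 where 1 was kept.

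The mean number of kept residues in the control mice ran from 2.51 to 2.67 with a median of 2.58, and in the LFPRLR SMO mice from 2.44 to 2.64 with a median of 2.54. LFPRLR SMO replicate 3 was the lowest of the 12. The groups overlapped and the difference of -0.0337 residues did not pass the test (p = 0.394 by exact Mann–Whitney *U*, 2 of 6 LFPRLR SMO libraries above the control median). By reads the difference was -0.0438 (p = 0.310 by exact Mann–Whitney *U*). The smallest p over the 5 classes was 0.310 by sequences, for 2 kept residues (exact Mann–Whitney *U* test), and 0.240 by reads, for the same class (medians 28.2% and 31.9%, exact Mann–Whitney *U* test).

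Counting bases gave a finer view of the same trimming. Of nucleotide sequences without another segment's end, 22.5% in the median library kept all 14 CDR3 bases of Ighj2. The next commonest end kept 6 bases, a loss of 8, in 14.2% (range 11.8% to 18.4%), followed by 10 bases in 8.76%, 8 bases in 7.92% and 4 bases in 7.73%. Only 0.636% kept none. The mean was 9.21 kept bases in the median control library and 9.04 in the median LFPRLR SMO library (p = 0.180 by exact Mann–Whitney *U*). LFPRLR SMO replicate 3 had the lowest mean, 8.56, with the lowest share of untrimmed ends, 17.8%, and the highest share keeping 6 bases, 18.4%. Control SMO replicates 5 and 7 had the highest shares keeping 13 bases, 11.4% and 7.90%, and both held the abundant CDR3 ANYDGSPYFDY, whose commonest nucleotide form kept 13.

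**Figure D3:**
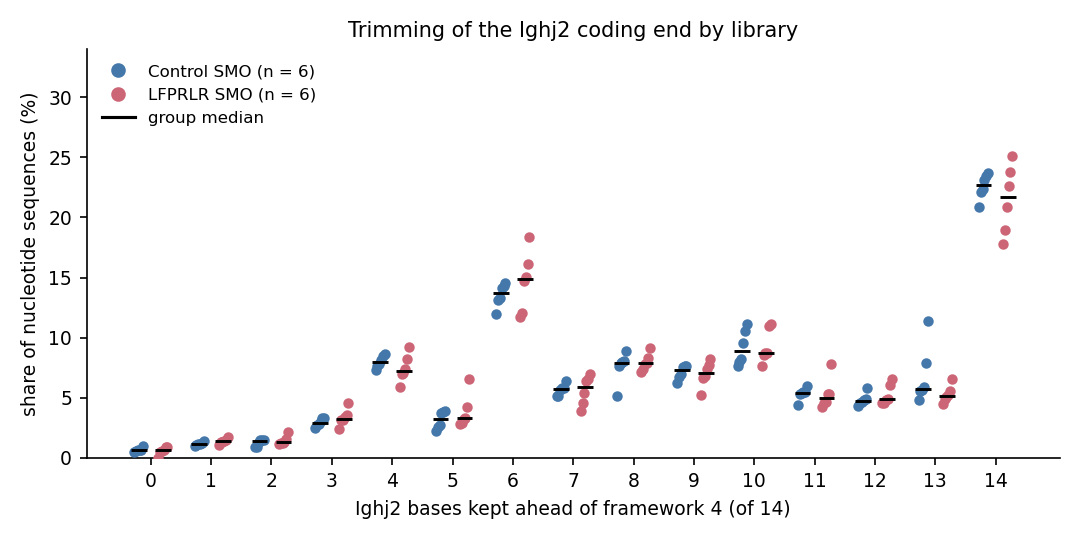
Trimming of Ighj2, with the number of its 14 CDR3 bases that were kept on the horizontal axis and the share of Ighj2 nucleotide sequences in percent on the vertical axis, leaving out CDR3s that ended as another segment. Points are libraries, 6 per group, and black bars are group medians. Peaks stand at 14 and 6 kept bases in both groups.

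A part of the sequences with the Ighj2 framework carried the CDR3 end of another J segment. A CDR3 was placed here when its last 3 residues were MDY (the Ighj4 end), FAY (Ighj3) or FDV (Ighj1). Such ends can also arise by chance from D or added bases, so the class is defined by its residues alone. The Ighj4 end stood ahead of the Ighj2 framework in 5.35% of Ighj2 sequences in the median library (range 4.35% to 5.97%) and in 2.95% of Ighj2 reads. The Ighj3 end did so in 4.002% of sequences (3.11% to 5.74%) and 2.53% of reads, and the Ighj1 end in at most 0.370% of sequences. The most-read examples of the first 2 kinds among CDR3s of at most 14 residues are shown with their framework, with the bases of the other segment's last 3 residues in capitals.
ARYGNHAMDY with the Ighj4 end: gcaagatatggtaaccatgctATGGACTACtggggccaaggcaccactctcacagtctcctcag
ASDYGDTWFAY with the Ighj3 end: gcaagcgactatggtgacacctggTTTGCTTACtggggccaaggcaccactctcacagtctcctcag
In control SMO replicate 9, ARYGNHAMDY had 188 reads with the Ighj2 motif and 3671 reads with the Ighj4 motif. In control SMO replicate 7, ASDYGDTWFAY had 205 reads with the Ighj2 motif and 6688 with the Ighj3 motif. In both cases the rarer form had the Ighj2 framework.

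The same CDR3 was often present with its own segment's motif in the same library. Leaving out LFPRLR SMO replicate 6, this held for 68.0% to 87.1% of the Ighj2 sequences that ended as Ighj4 and for 66.8% to 84.7% of those that ended as Ighj3. Of the Ighj2 sequences with no other segment's end, 16.4% to 31.0% had a CDR3 that was also found with the Ighj4 motif and 15.9% to 33.0% one also found with the Ighj3 motif. The difference was 48.9 ± 13.04 percentage points for Ighj4 (higher in 12 of 12 libraries, exact sign-flip test, p = 0.000488) and 45.5 ± 16.2 points for Ighj3 (11 of 12, p = 0.000977 by the same exact test). The exception was LFPRLR SMO replicate 6, with 7 and 5 such sequences. The reverse combination was rarer. Of Ighj4 sequences, 2.70% in the median library ended in FDY as Ighj2 does, and the Ighj2 share ending as Ighj4 was higher by 2.81 ± 0.538 points (12 of 12 libraries, exact sign-flip test, p = 0.000488).

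The framework bases of these sequences were mixed as well. Positions are counted from 1 at the first base of framework 4, and each difference is written with the Ighj2 base first and the other segment's base last. At C6T the Ighj4 base was found in 34.8% of 11007 Ighj2 nucleotide sequences that ended as Ighj4, against 0.484% of 195523 with no other segment's end. At C12A the values were 7.42% and 0.0875%. Both changes leave the motif's residues as they are. At A16T and C19G, where the Ighj4 base would change the motif that the rule requires, it was found in 0 of them. At A24C, behind the motif, the shares were 0.518% and 0.548%. Ighj3 does not differ from Ighj2 ahead of position 12, where C12G was found in 1.403% of 8481 sequences that ended as Ighj3 and in 0.0481% of the others. Part of these sequences thus carried the Ighj4 base at the start of framework 4, while behind the motif the share with the Ighj4 base was near that of the other Ighj2 sequences. Whether they arose in the cells, in amplification or in read assembly was not tested. The share of all 3 ends together had medians of 9.71% in the control mice and 9.59% in the LFPRLR SMO mice (p = 0.394 by exact Mann–Whitney *U*).

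**Figure D4:**
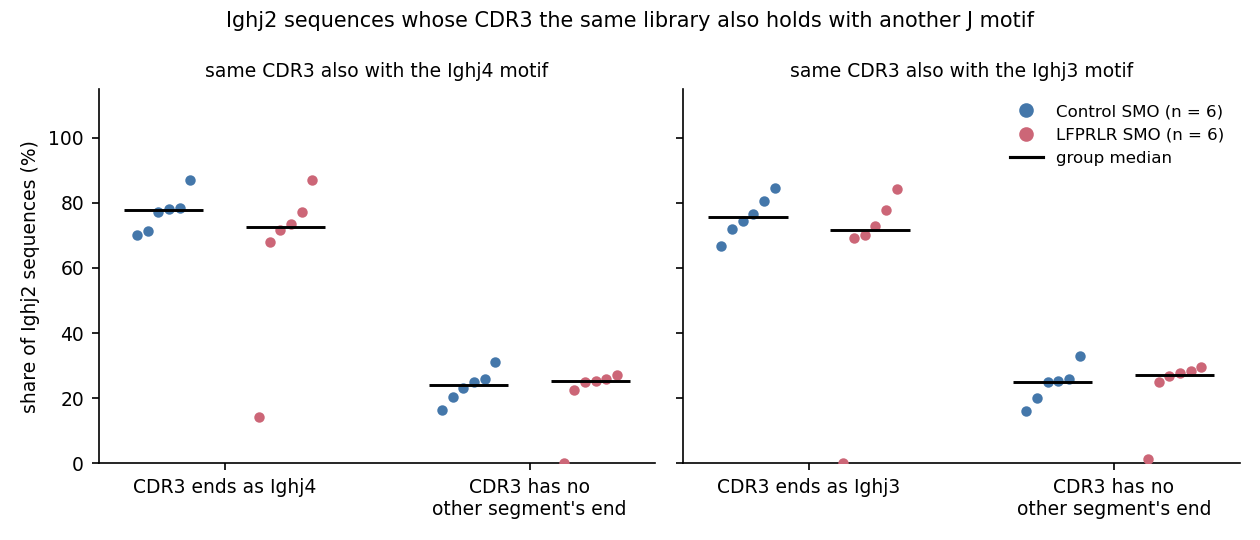
Share of Ighj2 sequences in percent whose CDR3 the same library also held with the Ighj4 motif (left panel) or the Ighj3 motif (right panel). In each panel the Ighj2 sequences that ended as that segment stand on the left and those with no other segment's end on the right, with 1 point per library and black group medians. In 11 libraries the left clusters lie at 66.8% or above and the right clusters at 33.0% or below, and the low points are LFPRLR SMO replicate 6.

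The amino acids of Ighj2 CDR3s were led by tyrosine (23.3% of residues in the median library), aspartate (13.2%), alanine (10.9%), glycine (10.8%) and arginine (10.4%). Phenylalanine, which YFDY also encodes, made up 5.97%. Of 20 amino acids compared between the groups by sequences, 1 (5%) had an adjusted p under 0.05, and by reads 0 (0%) did, with 4 and 5 at an unadjusted p under 0.05 (exact Mann–Whitney *U* tests).

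Glutamate, an acidic residue, was the amino acid that passed. By sequences its share of CDR3 residues ran from 1.61% to 1.74% in the control mice (median 1.66%) and from 1.13% to 1.58% in the LFPRLR SMO mice (median 1.52%). The groups did not overlap, every LFPRLR SMO library being lower (difference -0.145 percentage points, p = 0.00216 by exact Mann–Whitney *U*, the smallest possible, adjusted p = 0.0433). The difference was -0.1296 points in 1 library set and -0.161 in the other. By reads the medians were 1.57% and 1.11% and the ranges overlapped (difference -0.463 points, p = 0.0260 by exact Mann–Whitney *U*, adjusted p = 0.165). With each distinct CDR3 counted once the difference was -0.0590 points (p = 0.0649 by the same exact test), so the call depended on how often variants of a CDR3 were counted. Leaving out 1 library at a time, the smallest adjusted p over the 20 amino acids was 0.0433 without control SMO replicate 8, 0.0577 without LFPRLR SMO replicate 5 and 0.0866 without any of the other libraries (exact tests). As 0.0866 is the smallest value that a single amino acid can reach with 11 libraries, glutamate alone could not pass there. Its difference ran from -0.155 to -0.135 points over left-out libraries. In the other segments the glutamate difference was -0.124 points (p = 0.394 by exact Mann–Whitney *U*). The glutamate share of Ighj2 minus that of the other segments differed between the groups by -0.129 points (exact test, p = 0.0260, and 0.156 after adjustment over the 6 amino acids named), so a particular fall with Ighj2 did not pass.

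Aspartate, the other acidic residue, had medians of 13.4% in the control mice and 13.1% in the LFPRLR SMO mice by sequences (p = 0.00866 by exact Mann–Whitney *U*, adjusted p = 0.0866), and 0 of 6 LFPRLR SMO libraries exceeded the control median. In the other segments aspartate was lower in the LFPRLR SMO mice too, with medians of 10.4% and 9.92% (unadjusted p = 0.00216 by exact Mann–Whitney *U*), and the aspartate share of Ighj2 minus that of the other segments did not differ between the groups past the test (0.0839 points, exact test, p = 0.310). Leucine had medians of 2.91% and 3.31% by sequences (adjusted p = 0.13 by the exact test) and of 2.59% and 3.55% by reads (adjusted p = 0.0866), and 6 of 6 LFPRLR SMO libraries exceeded the control median under both weightings. By sequences the leucine difference was 0.431 points in 1 library set and -0.0180 in the other (exact stratified permutation test, p = 0.380), and by reads it was 1.21 and 0.702 points (p = 0.0200 by the same exact test, the smallest possible). By reads the 2 highest leucine values, 4.66% and 4.95%, were those of LFPRLR SMO replicates 4 and 5, the libraries led by ARDWGLRHYFDY. These 2 libraries shared many CDR3s, as described below, and lay in different sets. With such libraries averaged, the leucine difference by sequences was 0.392 points (exact test, p = 0.0635). Glutamine had medians of 0.319% and 0.360% by sequences (adjusted p = 0.101 by the exact test). Tyrosine had medians of 23.4% and 22.7% by sequences (adjusted p = 0.372 by the exact test) and of 24.1% and 22.4% by reads (adjusted p = 0.152). Within library sets it was lower by -0.829 and -0.299 points by sequences and by -1.73 and -1.63 by reads (exact stratified permutation test, unadjusted p = 0.0200 for each weighting). By sequences glutamate, aspartate and glutamine reached the same p. With sharing libraries averaged, the tyrosine difference by sequences was -0.441 points (exact test, p = 0.413). Phenylalanine had medians of 5.97% and 5.93% by sequences (adjusted p = 0.818 by the exact test).

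**Figure D5:**
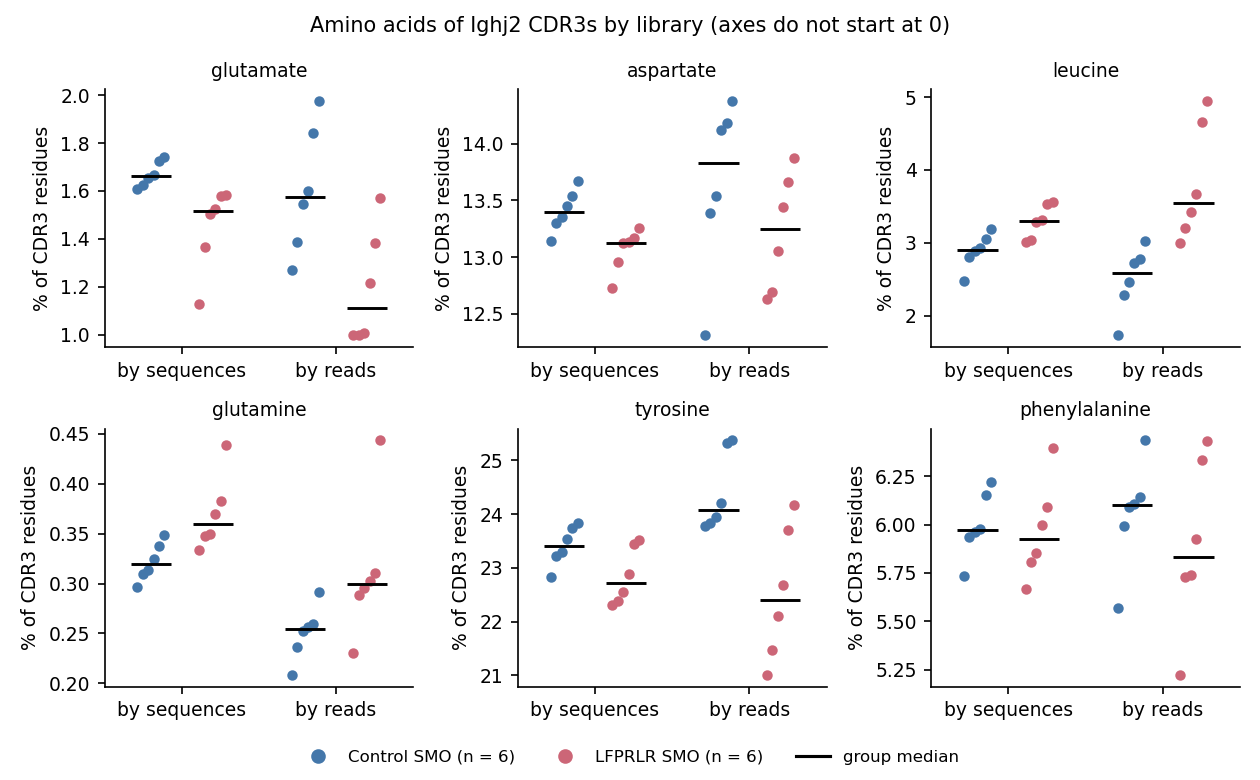
Shares of 6 amino acids among the residues of Ighj2 CDR3s, in percent, by sequences and by reads. Points are libraries, 6 control SMO and 6 LFPRLR SMO, black bars are group medians, and the vertical axes do not start at 0. For glutamate by sequences all LFPRLR SMO points lie below the lowest control point (1.61%), and by reads the groups overlap.

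Ahead of the kept J end, Ighj2 CDR3s differed in composition from those of the other segments within the same libraries. With CDR3s ending as another segment left out, 14 of 20 amino acids (70%) had an adjusted p under 0.05, 7 higher and 7 lower with Ighj2 (exact sign-flip tests over 12 libraries). The differences were small beside the levels. Leading J bases that fill no codon by themselves, AC in Ighj2 and CC in Ighj3, lie in this part where they were kept. Their effect on these shares was not tested. Tyrosine was higher with Ighj2 (14.3% against 13.6%, 12 of 12 libraries), as were glycine (14.9% against 14.2%, 11 of 12) and tryptophan (2.06% against 1.59%, 12 of 12). Alanine was lower (13.8% against 14.7%, 12 of 12), as were proline (2.40% against 2.96%, 12 of 12) and glutamate (2.14% against 2.33%, 12 of 12). The adjusted p was 0.00326 for glycine and 0.00195 for the others named here. With the other segments' ends left in, 4 amino acids were higher and 6 lower, and alanine differed by 0.00860 points (adjusted p = 0.920 by the exact test).

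Among sequence signatures of D segments ahead of the kept J, NWD, which Ighd4-1 (DQ52) encodes, was found in 1.53% of Ighj2 CDR3s in the median library against 0.852% with the other segments (higher in 12 of 12 libraries, exact sign-flip test, adjusted p = 0.00195 over 4 signatures). Signatures of the Ighd2 family (YDYD, YDGY, YSNY, YGNY or YGYD) were found in 7.08% against 8.15% (lower in 10 of 12, adjusted p = 0.0274 by the exact test). SSGY, listed for Ighd3-2, was found in 0.817% against 1.08%, and YGSS, listed for Ighd1-1, in 0.0108% against 0.00822% (exact sign-flip tests, adjusted p of 0.288 and 0.155). These shares count the strings alone, in a part that can hold J bases, and do not measure D segment use. YDGS was not among the strings counted. It stood in ANYDGSPYFDY, AREDYYDGSYDY and ARRYDGSRDY, which were abundant in some libraries as described below.

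Ighj2 reads were concentrated on a few CDR3s to a degree that varied among mice. The commonest Ighj2 CDR3 took from 1.36% of Ighj2 reads in LFPRLR SMO replicate 7 to 16.4% in LFPRLR SMO replicate 5, and the 10 commonest took from 9.86% to 33.4%. Group medians of the latter were 17.3% and 20.8% (p = 0.589 by exact Mann–Whitney *U*). In all, 57.0% to 68.1% of Ighj2 translations without another segment's end were read once in the 11 larger libraries.

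The most-read Ighj2 CDR3 differed between most libraries but not all. ARDWGLRHYFDY led LFPRLR SMO replicates 4 (4195 reads, 10.4% of Ighj2 reads) and 5 (7650 reads, 16.4%). ANYDGSPYFDY led control SMO replicates 5 (3880 reads, 10.6%) and 7 (3346 reads, 7.25%), and tied with 3 others at 4 reads in LFPRLR SMO replicate 6. The tied CDR3s there included VSYYSNYGY and ARGLYGNYDY, each with 4 reads (2.19%), which led control SMO replicate 8 and LFPRLR SMO replicate 8. AKSSYYNYFDY led control SMO replicate 4 (1109 reads, 2.61%) and had 2673 reads (3.88%) in control SMO replicate 8, which VSYYSNYGY led with 5020 reads (7.29%). These 3 pairs of libraries shared 25, 33 and 34 of their 50 commonest Ighj2 CDR3s, while no other pair of the same group shared more than 16 and no pair from different groups more than 7. Each pair joined 1 library of each Cμ set, so the 2 sets were not independent in the tests within library sets. Whether such pairs share cells or reads was not tested, and values with each pair averaged into 1 library are given in the closing section. Over all 4 segments, LFPRLR SMO replicate 6 shared 13 of its 50 commonest CDR3s with control SMO replicate 4. It shared 10 with control SMO replicate 7, 9 each with replicates 5 and 8, and 0 with replicates 3 and 9. With the other LFPRLR SMO libraries it shared from 1 (replicate 3) to 11 (replicate 8). Whether its reads came from other libraries was not tested. The other leading CDR3s were AREDYYDGSYDY in control SMO replicate 3 (2726 reads), KSDGYYRRDY in control SMO replicate 9 (2280 reads), ARRYDGSRDY in LFPRLR SMO replicate 3 (2049 reads), ANNRYEGY in LFPRLR SMO replicate 7 (602 reads) and ARGLYGNYDY in LFPRLR SMO replicate 8 (5141 reads). Of the leading CDR3s, 3 kept the whole of YFDY and the others kept 1 or 2 of its residues.

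Few Ighj2 CDR3s were common to many mice. Of 74757 distinct Ighj2 CDR3s, 81.5% were found in a single library, 6.93% in both groups and 4 in all 12 libraries. The latter were ATDY, AREDY, KRSLGYFDY and ARRGYFDY, of 4 to 9 residues. A further 43 were found in 11 libraries, and ARDWGLRHYFDY had the largest summed share of reads among them. ATDY, the shortest, had between 2 and 147 reads in each library, KRSLGYFDY between 1 and 136, and ARRGYFDY between 1 and 54. AREDY had 4 to 15 reads in the control libraries. In LFPRLR SMO replicates 3, 4, 5, 7 and 8 it had 43, 84, 218, 15 and 180 reads, and in the small library of LFPRLR SMO replicate 6 it had 1. As AREDY was singled out after its values were seen, it was not tested between the groups. ARDWGLRHYFDY was high in 2 libraries and had 390 reads or fewer in the others.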

How the data were processed

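Reads of J558 VH to Cμ amplicons were collapsed by the authors, who deposited for each library the count of reads per unique translation and per unique nucleotide sequence, with no normalization. The assembly and collapsing tools of these tables are not given in the sources used here. A table row that pools undetermined translations (1.23% to 2.17% of reads) was left out, and 87.9% to 92.6% of the remaining translations held a J motif. The deposited counts carry no molecular identifiers, so reads are not independent molecules.

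Members were found by the motif rule with NumPy 2.4.6 and SciPy 1.17.1 under Python 3.11.15. Groups and replicate numbers came from the labels, 6 mice each. Shares, mean CDR3 lengths, kept J residues and amino acid percentages were computed per library, by sequences and by reads. Groups were compared by exact Mann–Whitney U (two-sided, 924 arrangements of the labels, smallest p 0.00216), and Ighj2 with the other segments by the exact sign-flip test over 12 libraries. Adjusted p-values are Benjamini-Hochberg values within each family (20 amino acids, 3 segments, 4 signatures or the 6 named amino acids), and the others are unadjusted. Alternatives changed the weighting, read minimum (2), unit counted, motif (11 residues), cysteine window, table, statistic, library sets, averaging of library pairs, replicate block and libraries left out. Leaving out CDR3s that end as another segment was chosen after seeing the data. The members, lists and tests were chosen with earlier results of these data known. Amino acids were named by rule (Y, F, D and the 3 with the smallest p in each weighting, with any that passed), as were CDR3s (the most-read of each library and the 5 in most libraries, ties by summed share of reads). Scripts were checked on simulated data.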

Additional observations from a re-analysis of the deposited data

Results flagged for a closer look

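Of 82 groups of 6 values examined, 4 held a library whose gap to its nearest neighbour was large beside the range of its group, and chance alone gives such a gap in about 1 in 20 groups. Control SMO replicate 3 had a mean of 7.84 residues ahead of the kept J by reads, against 7.35 to 7.51 in the other control libraries. Control SMO replicate 9 had the Ighj3 end in 5.74% of its Ighj2 sequences, against 3.79% to 4.42% in the other controls, and any other segment's end in 11.97%, against 9.14% to 10.02%. LFPRLR SMO replicate 6 had 3 kept J residues in 22.98% of its 161 Ighj2 sequences, against 18.2% to 19.9% in the other LFPRLR SMO libraries.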

How the results depend on the processing

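The lower CDR3 length of Ighj2 against the other segments kept its direction and its call under all 20 alternatives (p at most 0.00391, exact sign-flip tests), with -1.22 to -1.18 residues as libraries were left out in turn. Use by reads, CDR3 length by sequences and kept J residues kept their direction and passed the test between the groups under none of the alternatives run (CDR3 length by reads within library sets, p = 0.0400 by the exact stratified permutation test, is given above), with ranges over left-out libraries of 0.373 to 1.17 percentage points, -0.303 to -0.187 residues and -0.0462 to -0.0213 residues. Use by sequences turned from -0.489 percentage points to 0.770 weighted by reads, 0.356 as a difference in means, 0.928 within library sets and 0.262 with sharing libraries averaged, none past the test, and ran from -0.798 to -0.180 over left-out libraries. The share of Ighj2 sequences ending as another segment turned from -0.129 points to 1.09 by reads, 0.772 with at least 2 reads, 0.104 in the nucleotide tables and 0.147 within library sets. Phenylalanine ran from -0.115 to 0.0279 points over left-out libraries.

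The 0.770 points of use by reads became 1.198 as a difference in means, 1.08 within library sets and 1.38 with sharing libraries averaged. The count of amino acids past the threshold, 1, became 0 weighted by reads, with each distinct CDR3 counted once, in the nucleotide tables, within library sets, with sharing libraries averaged and in the replicate block, and 2 with at least 2 reads. Over left-out libraries it ran from 0 to 2. The smallest p that a single amino acid can reach stays above the threshold after adjustment with 11 libraries (0.0866), within library sets (0.4), with sharing libraries averaged (0.317) and in the replicate block (1), so that a single amino acid could not pass in these designs. The glutamate difference was -0.145, -0.167 and -0.103 points in the last 3 of them. The residues ahead of the kept J, 0.00889 more with Ighj2, turned to -0.149 by reads, -0.0867 with at least 2 reads, -0.0171 in the nucleotide tables and -0.154 without CDR3s ending as another segment (chosen after seeing the data), rose to 0.0873 with each distinct CDR3 counted once (past the test), and ran from -0.00187 to 0.0228 over left-out libraries. Apart from that count and the leave-outs whose members differ by construction, the cause was not tested. Replicate numbers 3, 4, 5, 7 and 8 occur in both groups, but same-numbered mice did not deviate together (correlations -0.338 to 0.350 over 33 features), so the numbers were not taken as pairs. In the replicate block over these 5 pairs use by sequences differed by -0.331 percentage points (exact sign-flip test, p = 0.875), and use by reads by 2.32 points, higher with LFPRLR SMO in 5 of 5 pairs (p = 0.0625 by the same exact test, the smallest possible, so that no result could pass there). Counting translations with undetermined residues gave no value, because the tables pool them. Depth limits LFPRLR SMO replicate 6, where 3 sequences make up 1.86% of its Ighj2 translations.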
